A study of Homo sapiens with 12 samples.

Results

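The difference between the H2O2 responses of TIGK and HaCaT was measured in all 12 of the 12 libraries, as the change of each gene in TIGK minus its change in HaCaT on the log2 scale. Of the 58735 genes in the count table, 16618 reached an average of 10 raw counts across the libraries and were tested. HaCaT is an immortalized keratinocyte line from human skin, and TIGK is an immortalized keratinocyte line from human gingiva. Each line was kept in DermaLife K Keratinocyte Complete Medium, grown to confluency in 6-well plates and left untreated or given 5 mM H2O2 for 3 h, with 3 libraries of polyA RNA in each of the 4 groups. The treatment label of 1 treated library per line reads H2O2 and those of the other two read H2O3 and H2O4, while the protocol names H2O2 for every treated sample. Each tissue is represented by a single line, so the origin of the cells and the line itself cannot be told apart. The labels do not say whether the 3 libraries of a group came from separate cultures, so p-values measure the spread between these libraries, which may be technical.

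Hydrogen peroxide crosses membranes, oxidizes thiols and activates MAP kinases, and within hours the cell transcribes immediate early genes such as those of FOS, JUN and EGR, whose products then switch on or restrain further genes. Keratinocytes also answer with chaperones, cytokines and changes in adhesion. The mechanosensitive factors YAP and TEAD drive a partly separate set of early targets, of which CTGF, a secreted matricellular protein, is the best known.

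Total counts were between 30426401 and 49034244 per library. All 14 of the 14 keratinocyte markers examined, such as the keratins of the basal layer and TP63, were above 1 CPM (counts scaled by library total) in every group, and their summed level was between 40300 and 49400 CPM. The summed levels of the fibroblast and melanocyte lists were at most 26.6 and 20.2 CPM and were higher in TIGK than in HaCaT. In untreated and treated TIGK, MITF held 11 and 16.5 CPM of the melanocyte sum. COL1A1 held 16.9 and 18.6 and DCN 5.53 and 6.72 CPM of the fibroblast sum there. The next highest member of these lists in TIGK was PMEL, at 1.2 and 1.49 CPM. The sums of the endothelial and leukocyte lists were at most 1.66 and 3.51 CPM, and the part of all these lists in the results was not tested. Counts of mitochondrial chromosome genes made up 6.1 to 6.26% of untreated HaCaT libraries, 3.3 to 3.51% of treated HaCaT, 3.33 to 3.45% of untreated TIGK and 1.39 to 1.5% of treated TIGK. Levels below are normalized counts, which are counts divided by the TMM-scaled library size and multiplied by the mean library size. At the edge of the filter, CHKB and TOP3B, with a mean raw count of 9.917, were left out, and EPHA8 and AL590560.1, with 10, were kept.

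The response differed between the lines for 881 genes (5.30% of those tested, edgeR quasi-likelihood test, Benjamini-Hochberg adjusted p under 0.01). It was higher in TIGK for 385 genes (2.32%) and lower in TIGK for 496 (2.98%). An unadjusted p under 0.05 was reached by 4295 of the 16618 genes. DESeq2 called 1426 genes, 689 higher and 737 lower. List counts at these limits are to be read beside these totals. A difference above 1 log2 unit was reached by 189 of the 881 genes and one above 2 units by 49, and the median size over the 881 was 0.64. In TIGK itself 1699 genes rose (10.2%) and 2151 fell (12.9%), and in HaCaT 3135 rose (18.9%) and 2529 fell (15.2%). In bulk libraries a lower level per cell and fewer cells with the transcript cannot be told apart. The balance of higher and lower genes differed between settings. It was 353 against 475 without scaling factors, 436 against 403 with RLE factors, 458 against 408 with upper-quartile factors, 769 against 519 with no filter, 581 against 335 with a filter of 1 CPM in 3 libraries and 522 against 346 when mitochondrial genes were left out. The higher genes were 43.7% of those that passed, and between 63 and 66.6% of them without HaCaT H2O2 replicate 1 or 2, TIGK control replicate 2, or TIGK H2O2 replicate 2 or 3. The median difference over all genes was -0.04, and it lay between -0.05 and 0.04 in all of these fits.

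The 881 genes fell into 11 classes by what passed the test in each line. Among genes that rose in each line, 35 rose more in TIGK, with median responses of 1.57 in TIGK and 0.59 in HaCaT, and 26 rose less, with medians of 0.58 and 1.36. Among genes that fell in each line, 49 fell more in TIGK (medians -1.19 and -0.54) and 67 fell less (-0.51 and -1.15). A response that passed in a single line was more common: 62 genes rose and 178 fell in TIGK alone, and 194 rose and 179 fell in HaCaT alone. Opposite responses were called for 78 genes, of which 38 rose in TIGK and fell in HaCaT and 40 did the reverse, and 13 passed in neither line. Since each gene here passed the test of the difference itself, a response called in a single line was also different from that of the other line.

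**Figure D1:**
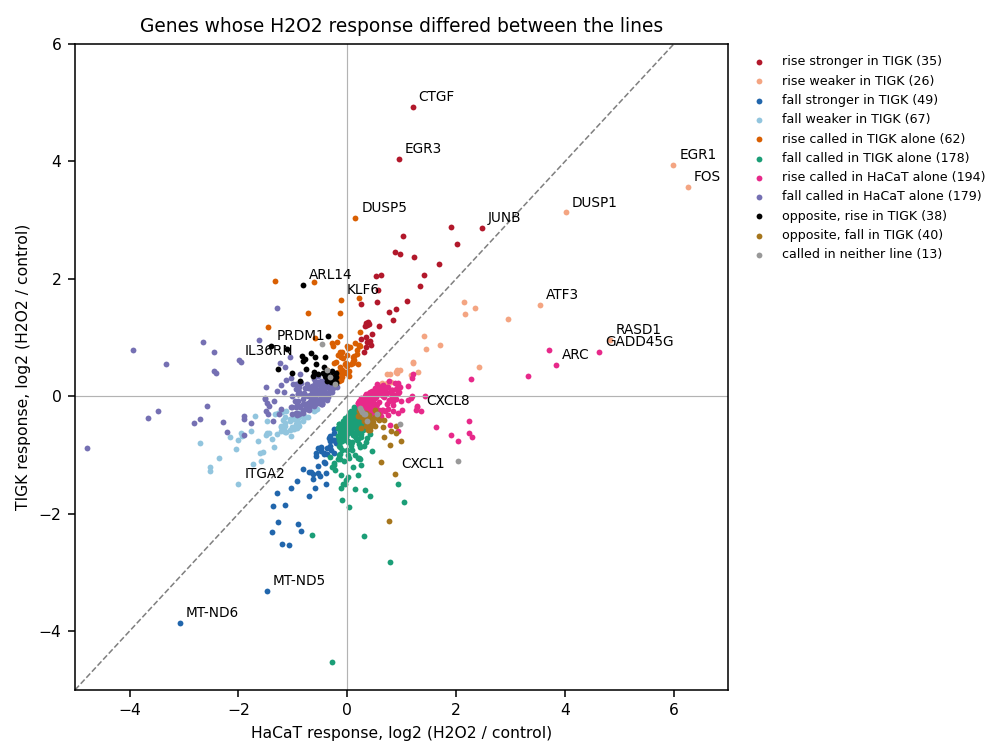
Log2 response to H2O2 in HaCaT (horizontal axis) and in TIGK (vertical axis) for genes that passed the test of the difference, 1 point per gene, coloured by class with the class size in the key. The dashed line marks equal responses, and 2 of the 881 genes lie outside the axes. CTGF, EGR3 and DUSP5 lie far above the line, FOS, EGR1, RASD1 and GADD45G far below it, and the genes that rose in TIGK and fell in HaCaT have median responses of 0.40 and -0.41.

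Among genes that rose more in TIGK, the largest difference belonged to CTGF, and its promoter is shown because 3 copies of the TEAD motif stand in it. The promoters of EGR1 and FOS, the immediate early genes with far larger rises in HaCaT, are shown for comparison. Each is the 250 bases before the RefSeq start of the gene (GRCh38.p14), written 5′ to 3′ on the strand of the gene. CTGF, named CCN2 in RefSeq, lies at chr6:131951373-131951622 on the minus strand, EGR1 at chr5:138465229-138465478 on the plus strand and FOS at chr14:75278578-75278827 on the plus strand. Capitals mark matches on either strand to the TEAD motif GGAATG, the TATA motif TATAAA or the CArG box, the binding motif of SRF. The AP-1 motif TGACTCA and the CRE motif TGACGTCA were searched too and had no match in these 3 windows.
CTGF: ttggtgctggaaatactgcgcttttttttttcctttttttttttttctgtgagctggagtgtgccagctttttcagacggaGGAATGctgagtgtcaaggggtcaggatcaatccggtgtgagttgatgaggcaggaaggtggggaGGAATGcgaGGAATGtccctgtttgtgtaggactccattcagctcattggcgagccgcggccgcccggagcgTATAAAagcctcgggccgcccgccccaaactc
EGR1: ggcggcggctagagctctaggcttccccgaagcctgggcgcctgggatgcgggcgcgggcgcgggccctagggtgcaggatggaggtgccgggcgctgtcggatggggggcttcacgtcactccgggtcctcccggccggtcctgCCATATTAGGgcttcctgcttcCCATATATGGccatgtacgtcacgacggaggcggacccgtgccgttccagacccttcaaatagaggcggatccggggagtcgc
FOS: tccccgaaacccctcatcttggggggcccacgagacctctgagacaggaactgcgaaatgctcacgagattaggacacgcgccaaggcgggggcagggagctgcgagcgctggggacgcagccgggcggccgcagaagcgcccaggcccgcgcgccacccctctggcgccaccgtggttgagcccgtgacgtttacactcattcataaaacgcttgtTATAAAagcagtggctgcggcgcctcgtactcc
The TEAD motif of CTGF begins 169, 104 and 95 bases before the start and its TATA motif 32 bases before it. The CArG boxes of EGR1 begin 105 and 83 bases before the start, and the TATA motif of FOS begins 33 bases before it. Over windows of 300 bases, which hold the 250 bases before and 50 after the start, 10988 of the 13469 protein-coding genes tested had a RefSeq promoter. The TEAD motif was in 10.8% of these, the CArG box in 1.02% and the TATA motif in 6.05%. A match is a description of the letters and says nothing of binding.

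CTGF (ENSG00000118523) lies on chromosome 6 from 131948176 to 131951373 (GRCh38). Its normalized counts were 291, 316 and 358 in untreated HaCaT, 742, 721 and 751 in treated HaCaT, 363, 320 and 365 in untreated TIGK and 11010, 10149 and 10842 in treated TIGK. The untreated lines overlapped, and every treated TIGK library stood above every other library. It rose 30.5-fold in TIGK and 2.3-fold in HaCaT, a difference of 3.73 log2 units (SE 0.109, edgeR adjusted p = 7.11e-14). EGR3, a zinc finger factor of the immediate early response, went from 350, 333 and 307 to 475, 824 and 617 in HaCaT and from 139, 106 and 152 to 2020, 2373 and 2125 in TIGK. EGR3 was thus lower in TIGK before treatment and higher after it, with no overlap at either point, and its difference was 3.09 (SE 0.223, edgeR adjusted p = 4.42e-08). RNF39, a RING finger protein gene, rose from a mean of 289 to 1913 in TIGK and from 439 to 889 in HaCaT (difference 1.70, SE 0.163, edgeR adjusted p = 1.31e-06). It overlaps PPP1R11 on the opposite strand, and its reads are uncertain because the use of strand in the counting is not given in the sources used here.

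Genes that rose less in TIGK were led by immediate early genes whose untreated level was higher in TIGK. RASD1, a small G protein induced by steroids and stress, went from 11.5, 7.74 and 4.94 to 200.3, 236 and 285 in HaCaT and from 109, 59.1 and 89.9 to 116, 194 and 190.04 in TIGK. Untreated TIGK stood far above untreated HaCaT, and treated TIGK stood below treated HaCaT by a smaller gap, with no overlap at either point. The difference of responses was -3.87 (SE 0.429, edgeR adjusted p = 8.17e-06). FOS, the leading partner of JUN in AP-1, went from 245, 246 and 318 to 26491, 18257 and 17187 in HaCaT and from 941, 741 and 729 to 10262, 7921 and 10280 in TIGK. Its order was reversed by treatment, since TIGK was above HaCaT before H2O2 and below it after, and the difference was -2.70 (SE 0.218, edgeR adjusted p = 1.69e-07). EGR1, a zinc finger factor of the early growth response, reached 63862, 66070 and 54318 in treated HaCaT and 59588, 51308 and 60966 in treated TIGK. These treated levels overlapped, whereas the untreated levels of 778, 1020 and 1103 in HaCaT lay below the 4154, 3416 and 3597 of TIGK, and the difference was -2.05 (SE 0.15, edgeR adjusted p = 4.91e-08).

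**Figure D2:**
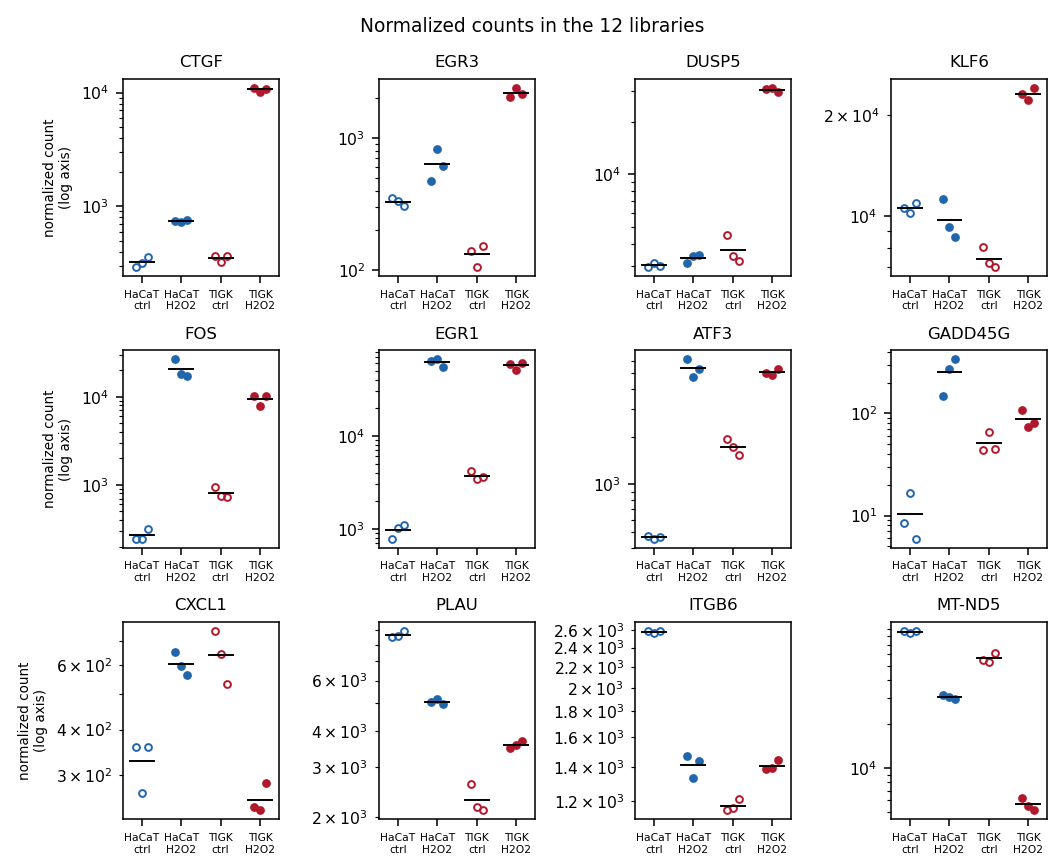
Normalized counts of 12 genes in each of the 12 libraries, on log axes that differ between panels. Blue points are HaCaT and red points TIGK, open points are untreated and filled points treated libraries, and black lines are group means (n = 3). Treated TIGK stands alone in CTGF, DUSP5 and KLF6, while the treated lines lie together in EGR1 and ATF3.

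How far the lines stood apart before and after H2O2 was compared by class, using log2 ratios of mean normalized counts with 1 added. The same libraries enter the difference of responses, so these values describe where it lies and are no separate evidence. In the 26 genes that rose less in TIGK the median level of TIGK against HaCaT went from 0.72 untreated to -0.07 treated, 20 of the 26 were higher in TIGK before treatment with no overlap of libraries, and 9 were so after. For 76.9% of the 26 the lines were closer after H2O2 than before, against 49.3% of all genes tested. In the 35 genes that rose more in TIGK the median went from 0.07 to 0.84, with 13 higher in TIGK without overlap before and 28 after, and the lines were closer after treatment for 28.6%. In the genes that fell more in TIGK the median went from -0.25 to -0.82, and in those that rose in TIGK and fell in HaCaT it went from -0.98 to 0.09.

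**Figure D3:**
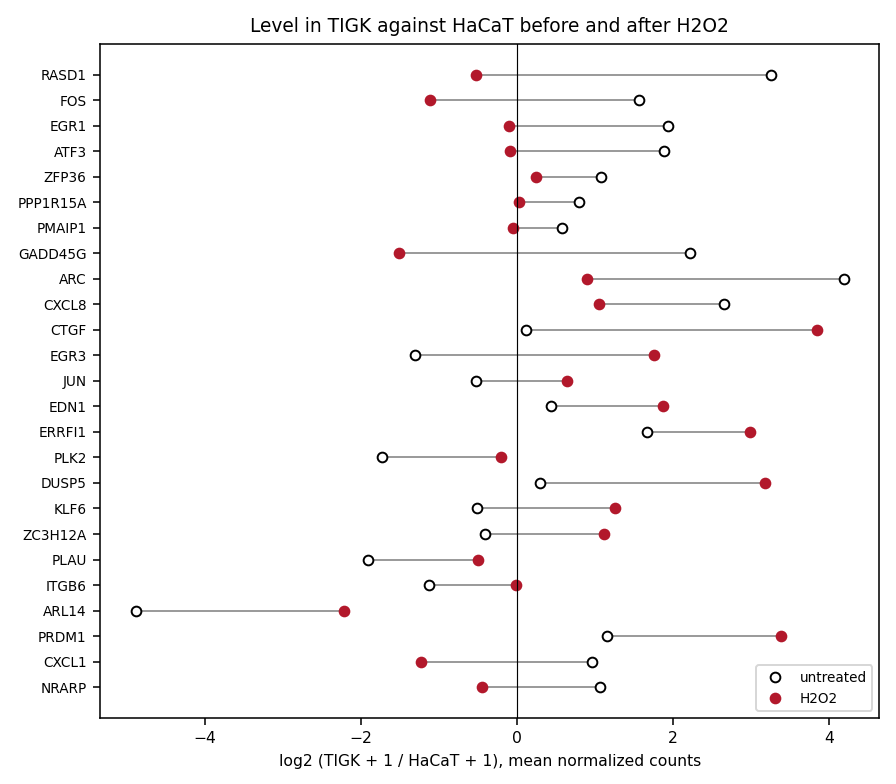
Log2 ratio of the TIGK to the HaCaT level (mean normalized counts with 1 added, n = 3 per group) for 25 genes, before H2O2 (open) and after it (filled), joined by a line. FOS, EGR1, ATF3 and RASD1 moved from above 0 to 0 or below, and CTGF, DUSP5 and EDN1 moved from below 0.5 to above 1.

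Of 14 AP-1 factors tested, 3 had a higher and 3 a lower response in TIGK. Rises were called for 9 in TIGK and 9 in HaCaT, beside 10.2% and 18.9% of all genes. JUN, the main JUN partner, went from 6100, 6252 and 6786 to 16784, 14503 and 13182 in HaCaT and from 4784, 4277 and 4264 to 22960, 20948 and 25183 in TIGK (difference 1.16, SE 0.116, edgeR adjusted p = 2.38e-06). FOSL1, a FOS relative of the later response, rose 2.04-fold in TIGK and had a HaCaT fold change of 0.915 (difference 1.16, edgeR adjusted p = 3.32e-06). ATF3, a stress-induced repressor that also belongs to the p53 list, rose 11.6-fold in HaCaT and 2.94-fold in TIGK (difference -1.98, SE 0.126, edgeR adjusted p = 7.72e-09). Its treated counts were 6114, 4729 and 5351 in HaCaT and 5018, 4869 and 5317 in TIGK, and these overlapped. JUNB (difference 0.39) and JUND (-0.89) were the other members that passed, named outside the rule after their values were seen.

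In the EGR and NR4A list, 4 of 14 responses were higher and 2 lower in TIGK. Besides EGR3 and EGR1, NR4A3, an orphan nuclear receptor, fell in HaCaT from 91.2 to 41.2 normalized counts while its change from 60.3 to 85.5 in TIGK did not pass (difference 1.64, edgeR adjusted p = 0.00209). ARC, an activity-regulated early gene, went from 16, 3.32 and 8.89 to 96.8, 174 and 167 in HaCaT, and from 182, 212 and 172 to 289, 283 and 245 in TIGK, where the change did not pass the limit. Its difference was -3.31 (SE 0.403, edgeR adjusted p = 2.58e-05), and TIGK stood above HaCaT both before and after H2O2. IER3, an early gene that limits apoptosis, rose more in TIGK (difference 1.06), as did IER2 (0.58), which was named outside the rule.

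Among 32 YAP and TEAD targets, 9 responses were higher and 3 lower in TIGK, and the median difference was 0.16 against -0.04 for all genes. EDN1, the vasoactive peptide endothelin 1, rose from 350, 302 and 238 to 1569, 1531 and 1663 in TIGK and from 202, 199 and 260 to 385, 465 and 446 in HaCaT (difference 1.44, SE 0.183, edgeR adjusted p = 4.01e-05). VGLL3, a TEAD cofactor, and IGFBP3, an insulin-like growth factor binding protein, passed for another reason, since each fell in HaCaT without passing in TIGK. IGFBP3 fell from 6385, 6414 and 7179 to 3664, 3519 and 3411 in HaCaT and stayed between 21241 and 22563 in the 6 TIGK libraries (difference 0.96, SE 0.0769, edgeR adjusted p = 1.59e-07). CYR61, a matricellular protein named outside the rule, rose more in TIGK (0.56). Over the whole list falls outnumbered rises, with 16 falls and 5 rises in HaCaT and 12 falls and 6 rises in TIGK. Of all genes, 15.2% fell and 18.9% rose in HaCaT, and 12.9% fell and 10.2% rose in TIGK. For SRF and actin cytoskeleton genes, 2 of 30 responses were higher and 4 lower in TIGK. VCL, the focal adhesion protein vinculin, which overlaps AP3M1 on the opposite strand, fell more in TIGK (difference -0.58, edgeR adjusted p = 6.88e-05), TRIB1, a pseudokinase, rose more (0.87, edgeR adjusted p = 1.98e-06), and FHL2, a LIM protein, fell in HaCaT alone (0.58, edgeR adjusted p = 0.00226). ACTN1, an actinin, fell in TIGK alone (-0.49, edgeR adjusted p = 0.00104), and lost the call without TIGK H2O2 replicate 2 or 3, at adjusted p up to 0.0126.

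MAP kinase phosphatases and other feedback genes of the ERK pathway held 12 of 26 members that passed, the most in number along with the YAP and the adhesion lists. Their responses were higher in TIGK for 8 and lower for 4, while the median over all 26 was -0.17. DUSP5, a nuclear phosphatase that is specific for ERK, went from 2952, 3109 and 3012 to 3127, 3441 and 3470 in HaCaT and from 4482, 3406 and 3212 to 30461, 31134 and 29484 in TIGK. Treated TIGK stood apart from every other library, and the difference was 2.89 (SE 0.126, edgeR adjusted p = 4.52e-11). ERRFI1, which inhibits the EGF receptor, rose 2.97-fold in TIGK and 1.19-fold in HaCaT (difference 1.32, SE 0.0966, edgeR adjusted p = 4.91e-08). DUSP4, another nuclear phosphatase, rose from 6349, 5341 and 5444 to 7545, 8691 and 7562 in TIGK and fell from 25466, 24483 and 25302 to 15853, 14618 and 14023 in HaCaT (difference 1.23, SE 0.1, edgeR adjusted p = 1.78e-07). RASD1 was the fourth member named by the rule.

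EGF receptor ligands moved less. Of 11 members, 2 responses were higher and 1 lower in TIGK. NRG1, a neuregulin, had responses of -0.64 in TIGK and -1.30 in HaCaT (difference 0.66, edgeR adjusted p = 3.89e-05). EREG (difference 0.52) and HBEGF (-0.55) passed with all libraries, at edgeR adjusted p = 0.00775 and 0.00956. They lost the call without 7 and 9 of the 12 libraries left out singly, at adjusted p up to 0.0263 and 0.0482, and HBEGF also with RLE or upper-quartile factors, at adjusted p up to 0.0122.

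Kruppel-like factors, which act in epithelial differentiation and stress, had 4 higher and 0 lower responses of 15 tested by edgeR, and 5 higher and 0 lower at an unadjusted p under 0.05 and by DESeq2. KLF6 went from 8055, 7222 and 7011 to 23150, 22239 and 24209 in TIGK and from 10552, 10224 and 10905 to 11195, 9287 and 8610 in HaCaT, where the groups overlapped (difference 1.77, SE 0.11, edgeR adjusted p = 7.43e-09). KLF7 fell to 0.391 of its level in HaCaT, from 7511, 7621 and 8113 to 3343, 2973 and 2773, without passing in TIGK (difference 1.27, edgeR adjusted p = 6.62e-07). KLF4 passed narrowly (0.36, edgeR adjusted p = 0.00891) and lost the call without 7 of the libraries left out singly, at adjusted p up to 0.0283, and without scaling factors, at 0.0154. KLF14 held 17, 22 and 35 raw counts in untreated HaCaT and 0, 0 and 2 in treated HaCaT, against 99, 87 and 67 and then 42, 35 and 75 in TIGK, so its fitted difference rests on very few counts and is not given.

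GADD45 and p53 target genes were split. GADD45G, a growth arrest gene, went from 8.41, 16.6 and 5.92 to 149, 269 and 336 in HaCaT and from 43.7, 66.4 and 45 to 108, 74.2 and 80.8 in TIGK. The raw counts behind the untreated HaCaT values were 11, 15 and 6, the treated levels of HaCaT all exceeded those of TIGK, and the difference was -3.88 (SE 0.492, edgeR adjusted p = 4.08e-05). GADD45A, its relative, rose more in TIGK (0.46, edgeR adjusted p = 0.00434) and lost the call without HaCaT control replicate 1 or 3, at adjusted p up to 0.016. Of 33 p53 targets 3 responses were higher and 4 lower in TIGK. PLK2, a polo-like kinase, went from 2172, 2219 and 2030 to 9541, 8517 and 8591 in TIGK and from 6976, 6610 and 7732 to 10177, 10031 and 10340 in HaCaT (difference 1.53, SE 0.0894, edgeR adjusted p = 3.94e-09). PLK3 rose more in TIGK too (0.67, edgeR adjusted p = 0.000516), and PMAIP1, the BH3 protein NOXA, rose less (-0.63, edgeR adjusted p = 0.000255).

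**Figure D4:**
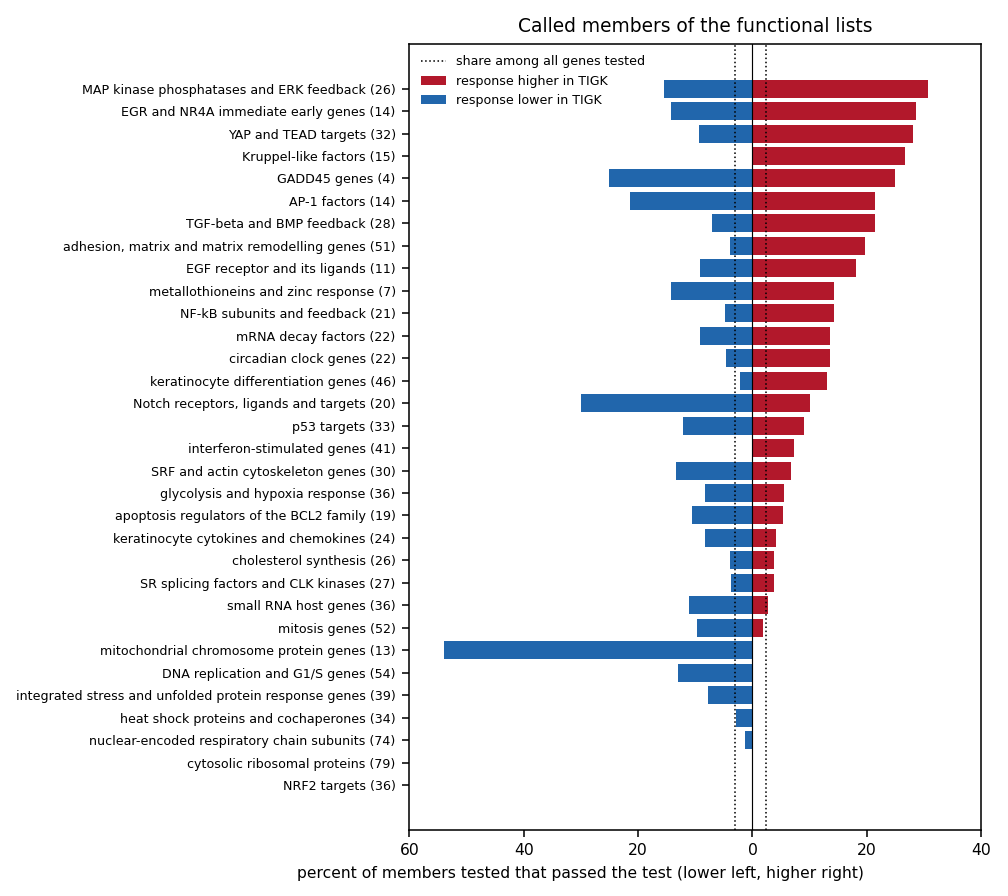
Share of tested members of each functional list whose response passed the test as higher in TIGK (red, to the right) or lower in TIGK (blue, to the left), in percent, with the number tested in parentheses. Dotted lines mark the shares among all genes tested, 2.32% and 2.98%. Feedback, immediate early and YAP lists lie furthest right, mitochondrial chromosome genes furthest left, and ribosomal proteins and NRF2 targets have no bar.

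Of 34 heat shock proteins and cochaperones, 26 rose in TIGK and 25 in HaCaT, beside 10.2% and 18.9% of all genes. By edgeR 1 differed (2.94%, against 5.30% of all genes), and by DESeq2 4, beside 1426 of the 16618 genes tested. At an unadjusted p under 0.05 there were 13, 4 higher and 9 lower, beside 4295 of the genes tested. At list sizes of this order, counts of 0 or 1 lie near the share of all genes and are no result about the members. The chaperone that differed was HSPA1B, an inducible HSP70, which went from 1554, 1545 and 1224 to 4413, 5403 and 4334 in HaCaT and from 2412, 3225 and 2010 to 4636, 4711 and 4673 in TIGK. Its difference was -0.84 (edgeR adjusted p = 0.00476), it lost the call with DESeq2 (adjusted p = 0.0107) and without 6 of the libraries left out singly (up to 0.0298), and its reads are shared with the nearly identical HSPA1A. Of 36 NRF2 targets, 7 rose in TIGK and 12 in HaCaT, beside 10.2% and 18.9% of all genes, and 0 differed by edgeR or DESeq2. An unadjusted p under 0.05 was reached by 9, 2 higher and 7 lower, near the share of all genes. OSGIN1, a growth inhibitor induced by oxidative stress, came nearest (difference -0.78, edgeR adjusted p = 0.0273). Among 39 genes of the integrated stress and unfolded protein responses, 0 were higher and 3 lower in TIGK by edgeR (7.69%, near the 5.30% of all genes). At an unadjusted p under 0.05 the counts were 1 and 13, and by DESeq2 0 and 7. TRIB3, a pseudokinase induced by ATF4, rose in HaCaT from 2368 to 3790 and fell in TIGK from 2079 to 1575 (difference -1.08, edgeR adjusted p = 4.95e-07). PPP1R15A, the phosphatase subunit GADD34, rose in each line but less in TIGK (-0.77, edgeR adjusted p = 0.000101). CHAC1, a glutathione-degrading enzyme, had a difference of -1.44 (edgeR adjusted p = 0.00688), held without 3 of the 12 libraries left out singly and lost without the other 9, at adjusted p up to 0.0285.

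Cytokines and NF-kB feedback included genes with opposite signs. CXCL1, a neutrophil chemokine, fell from 745, 646 and 532 to 245, 240 and 286 in TIGK and rose from 358, 267 and 358 to 654, 599 and 564 in HaCaT. Groups did not overlap in either line, and the difference was -2.20 (SE 0.194, edgeR adjusted p = 5.01e-07). CXCL8, interleukin 8, rose in HaCaT from 219, 217 and 228 to 453, 554 and 688, whereas in TIGK 1764, 1363 and 1059 untreated overlapped 1083, 1266 and 1159 treated (difference -1.61, SE 0.221, edgeR adjusted p = 9.63e-05). IL36RN, the interleukin 36 receptor antagonist, fell in HaCaT from 58.8, 28.7 and 53.3 to 15.6, 12.8 and 7.47, and its level of 96.4 to 128 in untreated and 160 to 194 in treated TIGK did not pass (difference 2.59, edgeR adjusted p = 0.000394). These were the 3 of 24 cytokines that passed. In NF-kB feedback 3 of 21 responses were higher and 1 lower in TIGK. ZC3H12A, the RNase regnase 1, rose from 682, 669 and 644 to 1743, 1736 and 1805 in TIGK alone (difference 1.53, SE 0.119, edgeR adjusted p = 1.05e-07), and N4BP1, which restrains NF-kB signalling, rose in TIGK and fell in HaCaT (0.50, edgeR adjusted p = 0.00147), although it left the opposite class with upper-quartile factors. ICAM1, an adhesion receptor for leukocytes, had a difference of -1.18 (edgeR adjusted p = 0.00306) that was lost without 6 of the libraries, at adjusted p up to 0.0172.

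ZFP36, an mRNA decay factor which binds AU-rich elements, rose less in TIGK (-0.85, edgeR adjusted p = 5.8e-05), while ZFP36L1 (0.85, edgeR adjusted p = 6.89e-06) and BTG1 (0.62, edgeR adjusted p = 8.01e-05) rose in TIGK alone and ZFP36L2 fell in HaCaT alone (0.63, edgeR adjusted p = 0.000835). In all, 5 of 22 decay factors passed, 3 higher and 2 lower in TIGK. Of 28 TGF-beta and BMP genes 6 responses were higher and 2 lower. INHBA, the activin A subunit, fell in HaCaT from 17128 to 7464 and in TIGK from 5808 to 4822 (difference 0.93, edgeR adjusted p = 4.19e-06), and BHLHE40, a repressor that is also in the clock list, rose more in TIGK (0.89, edgeR adjusted p = 6.29e-07). The lower responses were those of ID2 (-1.63, edgeR adjusted p = 0.00426) and BAMBI (-0.97, edgeR adjusted p = 0.0053), which lost the call without 7 and 8 of the libraries left out singly, at adjusted p up to 0.0271 and 0.0268.

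Notch pathway genes had 6 lower and 2 higher responses of 20. NRARP, a Notch target that feeds back on the pathway, fell in TIGK from 1069, 937 and 901 to 694, 578 and 610 and rose in HaCaT from 425, 453 and 503 to 746, 983 and 837 (difference -1.53, SE 0.155, edgeR adjusted p = 3.05e-06). HES4 (-1.40, edgeR adjusted p = 0.000826) and HES7 (-1.51, edgeR adjusted p = 0.000465), repressors of the HES family, rose in HaCaT, and HES4 fell in TIGK. JAG1, a Notch ligand, moved the other way. It fell in HaCaT from 28408, 28381 and 31471 to 15616, 14706 and 13099 and stayed between 5015 and 5474 in the 6 TIGK libraries (difference 1.02, SE 0.091, edgeR adjusted p = 5.49e-07). In the clock list 4 of 22 passed. PER1, a period gene, rose in HaCaT alone (-0.74, edgeR adjusted p = 0.000664), CRY1 (0.57, edgeR adjusted p = 0.00196) fell less in TIGK, and ARNTL (0.55, edgeR adjusted p = 0.00116) fell in HaCaT alone.

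Adhesion and matrix genes fell in each line, 28 of 51 in TIGK and 27 in HaCaT, beside 12.9% and 15.2% of all genes. Responses were higher in TIGK for 10 and lower for 2. Of the 10, 5 fell in each line but less in TIGK, 3 fell in HaCaT alone and 2 had opposite responses. PLAU, the urokinase plasminogen activator, rose in TIGK from 2611, 2177 and 2114 to 3479, 3563 and 3697 and fell in HaCaT from 8509, 8574 and 8933 to 5037, 5163 and 4978 (difference 1.42, SE 0.093, edgeR adjusted p = 1.11e-08). ITGB6, an integrin subunit of wounded epithelium, rose in TIGK from 1150, 1161 and 1210 to 1387, 1392 and 1445 and fell in HaCaT from 2585, 2560 and 2581 to 1471, 1332 and 1439. After treatment its levels in the lines overlapped, and the difference was 1.13 (SE 0.0862, edgeR adjusted p = 8.31e-08). ADAMTS6, a metalloprotease, fell in TIGK alone (-0.93, edgeR adjusted p = 0.002), a call lost without TIGK control replicate 2 or TIGK H2O2 replicate 3, at adjusted p up to 0.017. SERPINB2, an inhibitor of urokinase, fell in each line (0.65, edgeR adjusted p = 0.00767) and lost the call of a difference without 7 of the libraries, at adjusted p up to 0.023. HAS3, a hyaluronan synthase outside the list, fell from 10934, 10863 and 11077 to 3496, 3414 and 3200 in HaCaT and from 12589, 11579 and 12004 to 8696, 10268 and 9888 in TIGK (difference 1.38, SE 0.0866, edgeR adjusted p = 7.5e-09). It overlaps CHTF8 on the opposite strand.

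Keratinocyte differentiation genes had 6 higher and 1 lower response of 46, with a median difference of 0.25. Falls were called for 15 in HaCaT and 3 in TIGK, beside 15.2% and 12.9% of all genes, with no test between the lines. PRDM1, a repressor of the upper epidermis, rose in TIGK from 278, 237 and 282 to 427, 462 and 549 and fell in HaCaT from 134, 79.6 and 144 to 56.7, 51.3 and 27.8 (difference 2.26, SE 0.312, edgeR adjusted p = 9.95e-05). ZNF750, a factor that drives late differentiation, likewise rose in TIGK from 178 to 286 and fell in HaCaT from 266 to 149 (difference 1.52, edgeR adjusted p = 0.000225). ELF3, an epithelial ETS factor, held 70.2, 74.7 and 77.4 in untreated and 146, 171 and 184 in treated TIGK and at most 16 in HaCaT (difference 2.64, edgeR adjusted p = 0.00464), a call lost without 6 of the libraries at adjusted p up to 0.0204. ELF3 overlaps ELF3-AS1, PRDM1 overlaps ATG5 and ZNF750 overlaps TBCD, each on the opposite strand. LCE3D, of the cornified envelope, was the lower member (-1.13, edgeR adjusted p = 0.00928), and lost the call without 10 of the libraries, at adjusted p up to 0.0323, and with RLE or upper-quartile factors. Of the 14 keratinocyte markers 3 passed, all higher in TIGK, namely TP63 (0.37), DSG3 (0.56) and PKP1 (0.48).

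Genes of opposite direction beyond these lists included signalling, guidance and secreted proteins. ARL14, a small GTPase, rose in TIGK from 33.6, 34.2 and 18.8 to 107, 92.3 and 122 and fell in HaCaT from 860, 960 and 830 to 483, 427 and 594 (difference 2.71, SE 0.255, edgeR adjusted p = 1.16e-06). SEMA7A, a membrane-anchored semaphorin, went from 758, 774 and 561 to 1090, 1319 and 1258 in TIGK and from 745, 920 and 977 to 393, 461 and 365 in HaCaT (difference 1.92, SE 0.182, edgeR adjusted p = 1.16e-06). In the other direction stood VGF, a secreted neuropeptide precursor, with 547, 528 and 457 before and 298, 317 and 289 after H2O2 in TIGK and 148, 117 and 91.8 before and 256, 222 and 235 after it in HaCaT (difference -1.74, SE 0.209, edgeR adjusted p = 2.05e-05). GAS1, a growth arrest protein, and MARCHF4, a membrane ubiquitin ligase, had differences of -1.73 (edgeR adjusted p = 0.000311) and -2.88 (edgeR adjusted p = 0.00494). GAS1 left the opposite class with RLE or upper-quartile factors and when mitochondrial genes were left out. MARCHF4 left it without scaling factors and when mitochondrial genes were left out, and without 5 of the libraries its difference did not pass, at adjusted p up to 0.0367. Of the 78 genes called opposite, 69 stayed so with RLE factors, 62 with upper-quartile factors, 71 without scaling factors and 65 when mitochondrial genes were left out.

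Responses called in a single line also had large members outside the lists. In TIGK alone, EDAR, the ectodysplasin receptor, rose from 13.2, 13.5 and 8.36 to 26.7, 33.3 and 34 (difference 2.15, edgeR adjusted p = 0.0016), and UGT8, a galactosyltransferase of sphingolipids, fell from 31.5, 14.5 and 24 to 5.8, 1.9 and 5.54 while HaCaT held 774 to 1033 throughout (difference -2.67, SE 0.383, edgeR adjusted p = 0.000141). KRT81, a hair keratin with close paralogs, and ADPRHL1 fell in TIGK alone, with differences of -2.11 (edgeR adjusted p = 0.00615) and -1.91 (edgeR adjusted p = 0.00724) that were lost without 7 and 8 of the libraries left out singly, at adjusted p up to 0.0445 and 0.0383. In HaCaT alone, LEF1, a factor of the Wnt pathway, rose from at most 3.32 to between 8.54 and 15.6 while TIGK held 48.7 to 108 (difference -2.99, edgeR adjusted p = 0.00288), a call lost without HaCaT control replicate 1 or HaCaT H2O2 replicate 1, at adjusted p up to 0.0146. IGFN1, a muscle-type immunoglobulin protein, fell in HaCaT from 130, 107 and 126 to 11.1, 9.33 and 11.7 and lay between 2.32 and 15.6 in TIGK (3.22, edgeR adjusted p = 0.0044), a call lost without 6 of the libraries at adjusted p up to 0.0215. ZNF439, a zinc finger gene, held 9, 8 and 8 raw counts in untreated HaCaT and 0 in each treated HaCaT library, against 118 to 177 in treated TIGK. Against a floor of 3 counts per library it was at least 2.35-fold lower after treatment in HaCaT, with a fold change of 0.986 in TIGK, and the bound covers counting error only. CEMIP and FAM167A fell more in TIGK (-1.31 and -1.44, edgeR adjusted p = 0.000763 and 4.95e-05), and CSPG4 and KIAA1549L less (1.45 and 1.33, edgeR adjusted p = 0.00126 and 0.00105). CEMIP overlaps MESD and CSPG4 overlaps AC105020.1 on the opposite strand.

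All 13 protein genes of the mitochondrial chromosome fell in TIGK and 10 fell in HaCaT, beside 12.9% and 15.2% of all genes. For 7 of the 13 the fall was deeper in TIGK by edgeR, for 0 shallower. At an unadjusted p under 0.05 the counts were 11 and 0, beside 4295 of the 16618 genes tested. By DESeq2 they were 7 and 0, beside 1426. MT-ND5, a subunit of complex I, fell from 54470, 53345 and 60772 to 6246, 5529 and 5130 in TIGK and from 86025, 83539 and 86563 to 31771, 30605 and 29804 in HaCaT. Its difference was -1.84 (SE 0.0936, edgeR adjusted p = 4.7e-10), with no overlap between any of the groups. MT-CO1, of complex IV, fell to fractions of 0.2 in TIGK and 0.384 in HaCaT (difference -0.94, edgeR adjusted p = 2.53e-07), and nuclear copies of this gene make its reads uncertain. MT-ND6, the protein gene on the other strand, fell most in each line, to 0.069 and 0.119 (difference -0.79, edgeR adjusted p = 5.18e-05). MT-ATP6 fell in TIGK alone (-0.73, edgeR adjusted p = 1.25e-05). By contrast MT-ND1 fell alike in estimate, with responses of -0.85 and -0.84. Of 74 nuclear subunits of the respiratory chain, 45 rose in HaCaT and 9 in TIGK, beside 18.9% and 10.2% of all genes, with no test between the lines. In this list 1 difference passed, that of ATP5F1D (-0.54, edgeR adjusted p = 0.00416), which was lost without 7 of the libraries at adjusted p up to 0.0389. The median of these 74 was -0.15.

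**Figure D5:**
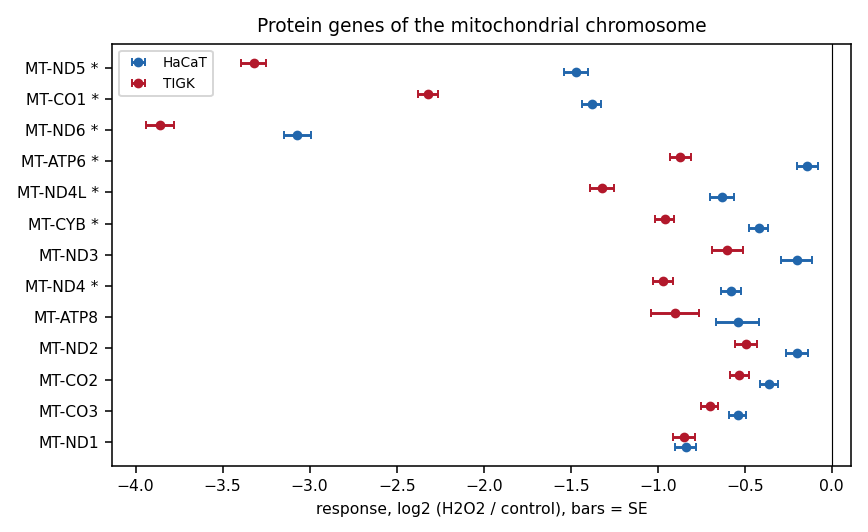
Log2 response to H2O2 of the 13 protein genes of the mitochondrial chromosome in HaCaT (blue) and TIGK (red), with bars for the SE of the edgeR fit. Stars mark the 7 genes whose response differed. MT-ND5, MT-CO1 and MT-ND6 fell most, and MT-ND1 had nearly equal responses.

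Among all genes 18.9% rose in HaCaT and 10.2% in TIGK. The counts of rises for genes of growth and division stand beside these shares, with no test between the lines. An unadjusted p under 0.05 was reached by 4295 of the 16618 genes tested, and DESeq2 called 1426. Of 54 replication and G1/S genes 29 rose in HaCaT and 12 in TIGK, and by edgeR 7 responses were lower and 0 higher in TIGK, against 16 and 2 at an unadjusted p under 0.05 and 7 and 0 by DESeq2. CDT1, a licensing factor, rose in HaCaT from 1491 to 2545 and had 4094 and 3842 in TIGK (difference -0.86, edgeR adjusted p = 1.18e-05). E2F1 also rose in HaCaT alone (-0.71, edgeR adjusted p = 0.000751). CCND2 (-0.64, edgeR adjusted p = 0.00154) and CCNE1 (-0.63, edgeR adjusted p = 0.00722), cyclins of G1, fell in TIGK alone. CCND2 lost the call of the difference without TIGK H2O2 replicate 2 or 3, at adjusted p up to 0.0139, and CCNE1 without 11 of the 12 libraries, up to 0.0493, and with RLE or upper-quartile factors. Among 52 mitosis genes 5 were lower and 1 higher. CCNB1, a mitotic cyclin, rose in HaCaT alone (-0.59, edgeR adjusted p = 0.000477), and KIF14, a kinesin, fell there alone (0.58, edgeR adjusted p = 0.00276). KIF14 lost the call of the difference with a block on the replicate number, at edgeR adjusted p = 0.0111. CDC20 (-0.46, edgeR adjusted p = 0.00133) and CENPA (-0.71, edgeR adjusted p = 0.00508) rose in HaCaT alone and lost the call of the difference without 4 and 10 of the libraries, at adjusted p up to 0.0202 and 0.0343. Of 79 cytosolic ribosomal proteins 63 rose in HaCaT and 5 in TIGK, and by edgeR 0 differed, against 12 at an unadjusted p under 0.05, all lower, and 1 by DESeq2. RPL28 came nearest (-0.40, edgeR adjusted p = 0.0108), and the median of the list was -0.21.

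Of 41 interferon-stimulated genes 3 responses were higher and 0 lower in TIGK by edgeR (7.32%, near the 5.30% of all genes). At an unadjusted p under 0.05 the counts were 13 and 3, beside 4295 of the 16618 genes tested. By DESeq2 they were 6 and 0, beside 1426. Rises were called for 16 in TIGK and 7 in HaCaT, beside 10.2% and 18.9% of all genes, with no test between the lines. SAMD9 (1.02, edgeR adjusted p = 4.95e-05), DDX60 (0.63, edgeR adjusted p = 0.000322) and DDX58, the RNA sensor RIG-I (0.64, edgeR adjusted p = 0.00201), fell in HaCaT alone, and DDX58 lost the call of the difference without HaCaT control replicate 1, at adjusted p = 0.0103. Of 7 metallothionein and zinc genes, SLC30A1, a zinc exporter, fell less in TIGK (0.88, edgeR adjusted p = 3.61e-06) and SLC39A10, a zinc importer, rose in HaCaT alone (-0.56, edgeR adjusted p = 0.000596). In glycolysis and the hypoxia response 2 of 36 were higher and 3 lower (13.9% against 5.30% of all genes), with ADM, adrenomedullin, at 0.85 (edgeR adjusted p = 7.19e-06) and NDRG1 at 0.62 (edgeR adjusted p = 0.000706). SLC2A3 and SLC16A3, transporters of glucose and lactate, were at -0.48 and -0.47 and lost the call without 9 and 4 of the libraries, at adjusted p up to 0.0328 and 0.0174. Cholesterol synthesis had 2 of 26 that passed (7.69%, near the 5.30% of all genes), STARD4 (0.60, edgeR adjusted p = 0.000104) and MSMO1 (-0.40, edgeR adjusted p = 0.00605). The call of MSMO1 was lost without 10 of the libraries at adjusted p up to 0.063. Among SR proteins and CLK kinases 2 of 27 passed (7.41%, also near the share of all genes), CLK1 (-0.54) and SRPK2 (0.39). These calls were lost without 7 and 1 of the libraries at adjusted p up to 0.0319 and 0.013, the latter without HaCaT control replicate 2. In the BCL2 family 3 of 19 passed (15.8%), with BCL2L2 at 0.53 and BOK at -0.55, lost without 1 and 6 of the libraries at adjusted p up to 0.0118 and 0.036, the former without HaCaT control replicate 1. SLC16A3, SRPK2 and BCL2L2 each overlap another gene on the opposite strand.

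Transcripts that code for no protein were few among those that passed. Protein-coding genes were 837 of the 881 that passed and 81.1% of all genes tested. Hosts of small RNAs had 1 higher and 4 lower of 36 (13.9%, against 5.30% of all genes). MIR222HG, which carries the miR-221 and miR-222 hairpins, fell less in TIGK (1.31, edgeR adjusted p = 0.00256), and AC020916.1, the host of miR-23a, fell in TIGK alone (-0.87, edgeR adjusted p = 0.000412). MIR34AHG held 84, 58 and 33 raw counts in untreated and 10, 10 and 6 in treated TIGK and 3 to 6 in HaCaT, and SNHG3, a snoRNA host, was at -0.59. These calls were lost without 9 and 8 of the libraries, at adjusted p up to 0.025 and 0.045. Among other noncoding genes with at least 100 normalized counts, LUCAT1, a stress-induced long RNA, fell in HaCaT from 159, 159 and 126 to 16.7, 18.7 and 0 (difference 3.29, edgeR adjusted p = 0.00253), and AC005674.2 rose in TIGK from 11.2, 21.8 and 28.2 to 73.1, 68.5 and 92.6 (2.56, edgeR adjusted p = 0.000213). RPSAP52 fell in TIGK alone from 77.3, 73.6 and 68 to 25.5, 20 and 15 (-1.92, SE 0.265, edgeR adjusted p = 0.000101). LUCAT1 overlaps ADGRV1 and RPSAP52 overlaps HMGA2 on the opposite strand. The other members named by the rule, AC104447.1, FAM45BP and AC110619.1, lost the call without 10, 7 and 10 of the libraries, at adjusted p up to 0.0284, 0.0374 and 0.0304.

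Beyond the measured response, the classes differed in what kind of genes they held. Transcription factors were 8.65% of the 13469 protein-coding genes tested, 14.7% of the 354 with a higher response in TIGK (95% Wilson interval 11.4 to 18.8) and 10.6% of the 483 with a lower one (8.12 to 13.6). They were 7 of the 26 genes that rose less in TIGK and 0 of the 45 that fell more, which allows a share of up to 7.87% by the same interval. Of 532 protein-coding zinc fingers of the C2H2 family 28 passed (5.26%), 22 with a higher and 6 with a lower response in TIGK. Of all 13469 protein-coding genes tested 837 passed. Of 93 homeobox factors 16 passed (17.2%), 3 higher and 13 lower. The median span of a protein-coding gene was 32637 bases over all tested, 6040 in the class that rose more in TIGK and 5010 in the class that rose less, and genes of at most 2 exons were 20% and 23.1% of these classes against 5.04%. The median span was 33152 in the genes that rose in TIGK alone and 14190 in those that rose in HaCaT alone. In the opposite classes it was 28183 for a rise and 21798 for a fall in TIGK. It was 67968 in those that fell less in TIGK and 52072 in those that fell more. For falls in TIGK alone it was 33802 and in HaCaT alone 45715.

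Promoters were compared for the sets in which at least 80% of the protein-coding genes had a RefSeq sequence. For the genes that rose more (74.3% matched) or fell more in TIGK (66.7%), the falls called in HaCaT alone (79%) and the opposite classes (78.4 and 75%), the comparison is void for want of sequences. The AP-1 motif TGACTCA was in 7.04% of the 284 promoters with a higher response in TIGK (95% interval 4.6 to 10.6), in 2.04% of the 392 with a lower one (1.04 to 3.97) and in 3.11% of all. The set with a higher response in TIGK pools rises and falls and holds classes whose own comparison is void. Its AP-1 matches were in 9 of 124 promoters of falls called in HaCaT alone and 6 of 55 of genes that fell less in TIGK. They were also in 3 of 49 of rises in TIGK alone, 1 of 26 of genes that rose more and 1 of 29 of opposite genes that rose in TIGK. The TATA motif was in 10.9% of promoters with a higher and 7.65% of those with a lower response, and in 6.05% of all. It was in 4 of the 23 of genes that rose less in TIGK. In those that rose more, whose comparison is void, it was in 6 of 26. The TEAD motif was in 13% and 8.16%, with intervals of 9.6 to 17.4 and 5.84 to 11.3 around the 10.8% of all promoters. The GC box GGGCGG was in 64.1% of promoters with a higher response (58.4 to 69.4) and 69.7% of all. It was in 82.7% of those with a lower response (78.6 to 86.1), a set that also pools rises and falls and holds void classes. For the CRE, CArG box, E2F and heat shock motifs, the intervals of the higher and lower sets held the share of all promoters. Those shares were 3.21, 1.02, 2.04 and 4.77%. Intervals here cover counting error over genes, which are not independent of each other, and no test was made.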

How the data were processed

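RNA was measured in 12 libraries, 3 in each of 4 groups (HaCaT and TIGK, untreated or with H2O2), grouped by their labels. The authors deposited raw read counts per gene, made per the labels with HISAT2 (2.0.5 and 2.0.0 are both named), StringTie 1.3.3b and featureCounts 1.5.0-p3 on GRCh38. The annotation release and the use of strand are not given in the sources used here. The deposited tables of the authors' own DESeq2 comparisons, which hold fold changes and p-values, were not used. A spreadsheet date stood in place of the symbol for 27 genes, which were named again through their Ensembl identifiers. There were 0 unused columns of sample values.

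Genes averaging 10 or more raw counts across the libraries entered the quasi-likelihood test of edgeR 4.0.16, run under R 4.3.3, with separate means for the 4 groups, TMM factors and all 12 libraries. The contrast was the response of TIGK minus that of HaCaT, and the limit was a Benjamini-Hochberg adjusted p under 0.01 over all genes tested. SE is the absolute log2 value divided by the square root of F. Overlapping genes came from the gene coordinates in the deposited count table. They were tested genes whose mean raw count was at least 0.1 of that of the gene named. Exon counts came from GENCODE 44, promoters from RefSeq, and figures from Python 3.11.15 with matplotlib 3.10.9. The scripts were tested on simulated data with 200 changed genes. Depth was 30426401 to 49034244 counts per library.

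Named were the 3 protein-coding genes with the largest difference in each class (4 in the opposite classes) that reached 100 normalized counts and whose libraries did not overlap, up to 4 members per list that passed or otherwise the 1 with the lowest p, the 3 highest and 3 lowest noncoding genes, and the markers. Of the genes so named, 1 is not reported here. The genes, lists and tests were chosen with earlier results of these data known. The alternatives were DESeq2 1.42.0, other scaling factors, other filters and limits, protein-coding genes alone, leaving out mitochondrial genes or each library, and a block on the replicate number.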

Additional observations from a re-analysis of the deposited data

Results flagged for a closer look

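The responses of the lines differed by the test of the difference itself for the genes counted here. The response was higher in TIGK for 385 genes and lower for 496. Of the genes that rose in each line, 35 rose more and 26 rose less in TIGK, and of those that fell in each line, 49 fell more and 67 fell less. In TIGK alone 62 rose and 178 fell, and in HaCaT alone 194 rose and 179 fell. Opposite responses were found for 38 genes that rose in TIGK and 40 that fell in it, and 13 genes differed without passing in either line. Groups of 3 libraries are too small for a search for single outlying libraries. Pairs of libraries were compared by the chi-square per degree of freedom of their counts. In treated HaCaT it was 29.2 and 19.6 for replicate 3 against 1 and 2, and 9.7 between replicates 1 and 2. In untreated TIGK the same pairs gave 15.4, 12 and 5.45.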

How the results depend on the processing

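No gene that passed was called in the opposite direction in any alternative. The count of genes higher in TIGK, 385, became 689 with DESeq2, which kept 878 of the 881 genes, 769 with no filter, 581 with a filter of 1 CPM in 3 libraries, 847 at an adjusted p under 0.05 and 103 at an absolute log2 difference above 1. The count lower in TIGK, 496, became 1172 and 86 under the last pair of limits. Genes that rose in TIGK numbered 2571 with no filter, 2877 at 0.05 and 137 above 1 log2 unit. Above that size 484 fell in TIGK, and 169 rose and 706 fell in HaCaT. Opposite genes numbered 219 at 0.05. The cause of these shifts, beyond the change of limit or of genes tested, was not tested.

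Leaving out 1 library at a time gave 266 to 704 higher genes (lowest without HaCaT control replicate 1, highest without HaCaT H2O2 replicate 1) and 186 to 637 lower genes (lowest without TIGK H2O2 replicate 2, highest without HaCaT H2O2 replicate 3). The lower count was also 294 and 300 without HaCaT control replicate 1 and 2, 211 without HaCaT H2O2 replicate 2, 222 without TIGK control replicate 2 and 191 without TIGK H2O2 replicate 3. Rises in TIGK ranged from 1173 to 2328, falls in TIGK from 1495 to 2435, rises in HaCaT from 2061 (without HaCaT H2O2 replicate 2) to 3272, falls in HaCaT from 2043 to 2796 and opposite genes from 55 to 92. Of 123 named genes that passed, 38 lost the call without some single library, 4 under another scaling and 1 with DESeq2, in which 1612 genes had no adjusted p. In some setting other than the limit of 1 log2 unit, 39 lost it, and these settings include the block on the replicate number. With that block KRT81, EREG and KIF14, among others, lost the call, at edgeR adjusted p of 0.0237, 0.0354 and 0.0111.

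With the replicate number as a replicate block, 268 genes were higher and 271 lower, and 533 of the 881 were kept. Untreated and treated libraries of the same number had correlations of -0.095 to 0.0478 in their deviations from group means. These values give no sign of pairing by number, but deviations from means of 3 libraries cannot exclude it. Of the 11782 genes with a mean of at least 100 raw counts 845 passed, and 36 genes under that mean did. The part of depth in this was not tested. The counts of opposite genes under other scalings were chosen after seeing the data.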
